A study of Mus musculus with 7 samples.

Results

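Levels of 10 genes of the interleukin 1 (IL-1) and interleukin 6 (IL-6) families were followed through the cells of the mouse mammary gland. They were chosen by symbol from the rows of the deposited count matrix: Il1a, Il1b, Il33, Il1rn and Il1r1 of the IL-1 family, Il6, Lif, Il6ra and Il6st of the IL-6 family, and Il10, an anti-inflammatory cytokine of its own family. All 10 had a row among the 27998 genes. The cells came from 3 young (3 to 4 months, Young A to C) and 4 aged (13 to 14 months, Aged A to D) nulliparous females of a mixed FVB, 129 and C57BL/6J background, all taken at diestrus; the labels name no transgene or treatment. The abdominal glands, freed of lymph nodes, were digested to single cells and captured in 1 library per mouse, and the authors sorted 13684 cells into 13 types. The question of the series is how the types and their genes differ with age.

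IL-1 is made as 2 agonists, Il1a and Il1b, which act through the receptor Il1r1, while Il1rn encodes a soluble antagonist that occupies the same receptor without signalling. Il33 is an alarmin of the same family, stored in nuclei and released when cells are damaged. IL-6 first binds its own receptor, Il6ra, and the pair then recruits Il6st (gp130), the signalling subunit that is also used by leukaemia inhibitory factor (Lif). IL-1 is a strong inducer of IL-6 in stromal cells, and IL-6 is often counted among the secreted factors of ageing tissue.

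Values are UMIs, single mRNA molecules counted by a molecular tag at the 3′ end, summed over the cells of a type in a mouse and given as CPM, the count scaled to a fixed total of UMIs that is the same for every sum, for sums of at least 3 cells. The mice had 6652599 to 16999625 UMIs and 1264 to 2865 cells each, and the median cell held 4758.5 to 7109.5 UMIs. Immune cells were few in aged mice: Mb macrophages numbered 3 to 9 cells in an aged mouse and 16 to 90 in a young mouse, and 1 Ma macrophage was left in the aged mice. Of 13583 cell barcodes, 101 occurred in more than 1 library, 57 of them at both ages. Types carried their markers: mean levels were 695 CPM of Pecam1 in vascular endothelial cells, 1344 CPM of Col1a1 in fibroblasts, 5014 CPM of Krt17 in myoepithelial cells, 1349 CPM of Prlr in hormone-sensing (HS) and 6299 CPM of Csn3 in alveolar (AV) luminal cells, and 889 CPM of Mmp12 in Mb macrophages. The cells labelled pericytes held their own markers Rgs5 (788 CPM) and Des (328 CPM) but also the endothelial genes Pecam1 (501 CPM) and Cdh5 (325 CPM). A UMI of both sets was found in 183 of 231 young (79.2%) and 35 of 118 aged (29.7%) single cells with this label, against 166 of 932 young and 54 of 887 aged vascular endothelial cells. Whether these are doublets or 1 cell type was not tested, and the pericyte values given here cover cells with and without both sets. Age and library preparation cannot be told apart, since every library held 1 mouse of 1 age.

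The members fell into few cell types. Il1a, Il1b, Il1rn and Il10 were highest in Mb macrophages, Il6, Il1r1 and Il6st in the vascular and pericyte groups, Il33 in lymphatic endothelial cells and fibroblasts, Lif in myoepithelial and AV cells, and Il6ra in Ma macrophages and fibroblasts. Types are clusters of these same cells, so their order is a description without a test. Il1r1 was detected in 0 of 146 Mb cells, which allows a share of up to 2.05%, although these cells held the most Il1b.

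**Figure D1:**
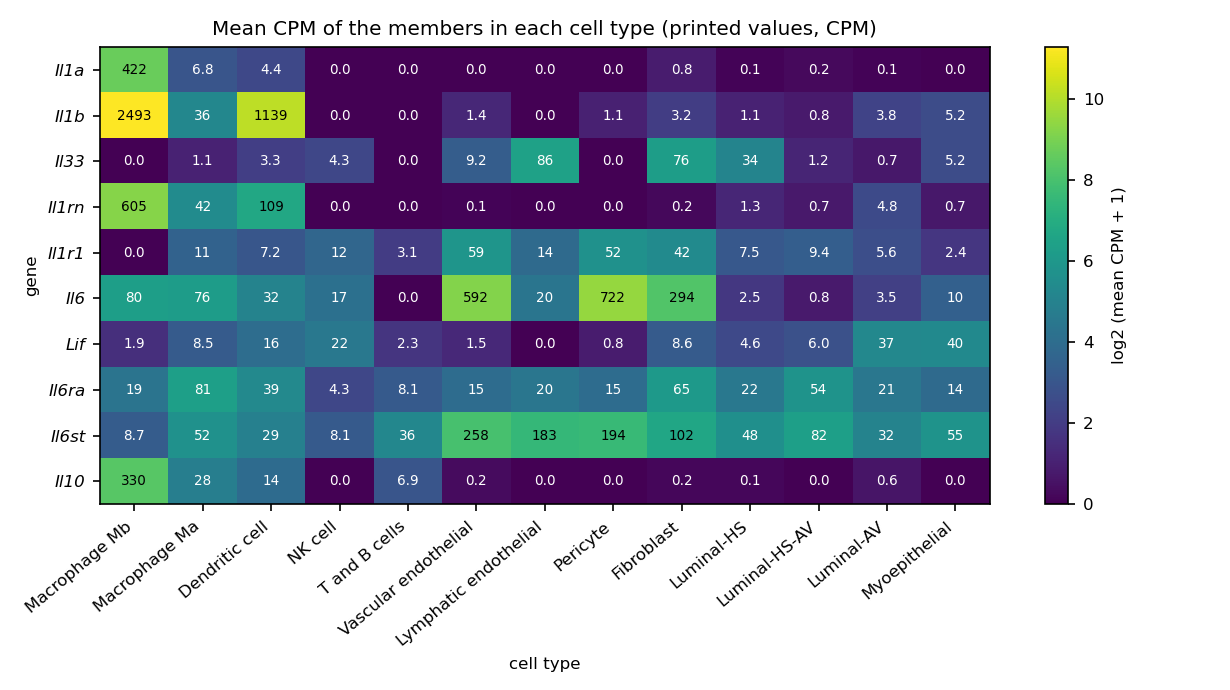
Mean CPM of each of the 10 genes (rows) in each of the 13 cell types (columns), over the mice with at least 3 cells of the type; colour is log2 of the mean CPM plus 1 and the printed numbers are mean CPM. Il1b reached 2493 CPM in Mb macrophages and 1139 CPM in dendritic cells, and Il6 reached 722 CPM in pericytes and 592 CPM in vascular endothelial cells.

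The first comparison asked which members differed between young and aged mice within a type. Of 80 pairs of a member and 1 of the 8 types present in every mouse, 29 passed the filter on low counts, every member at least once. The filter asks for enough counts in as many mice as the smaller age group holds, so a pair can pass through 1 age alone. Lif in myoepithelial cells and Il33 in HS cells passed through the aged mice, and Il1b in AV cells through the young mice. Admission of these pairs, and so the counts that include them, depended on the age in which they were high. With the edgeR quasi-likelihood test and calls that needed 1.5-fold and an adjusted p (Benjamini-Hochberg) under 0.05, 6 pairs rose and 1 fell. Fold changes come from this fit, whose TMM scaling between mice is not in the CPM, so they need not equal ratios of CPM. In vascular endothelial cells 4 of 4 tested members rose (Il1r1, Il6, Il6ra and Il6st), in a type in which 14.7% of all genes tested rose and 12% fell. In myoepithelial cells 1 of 3 rose (Lif; 12.8% of all genes tested rose and 14.8% fell). In HS cells 1 of 4 rose (Il33; 3.93% of all genes rose, 2.33% fell). In AV cells 1 of 7 fell (Il1b; 3.26% of all genes fell, 2.9% rose).

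In fibroblasts 0 of 5 members were called by edgeR or DESeq2, where edgeR called 2.07% of all genes higher and 1.11% lower. In pericytes 0 of 2 were called by edgeR or DESeq2, where edgeR called 7.19% higher and 4.61% lower. In Mb macrophages 0 of 4 were called by edgeR, which called 0.931% of all genes higher and 0.233% lower, and DESeq2 called Il1b lower. An unadjusted p under 0.05 (edgeR) was seen for 1 member in fibroblasts (Il33), 1 in pericytes (Il6st) and 2 in Mb macrophages (Il1b and Il1rn). The share of all genes at that unadjusted threshold was not taken, so these counts have no background. No member passed the filter in T and B cells.

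**Figure D2:**
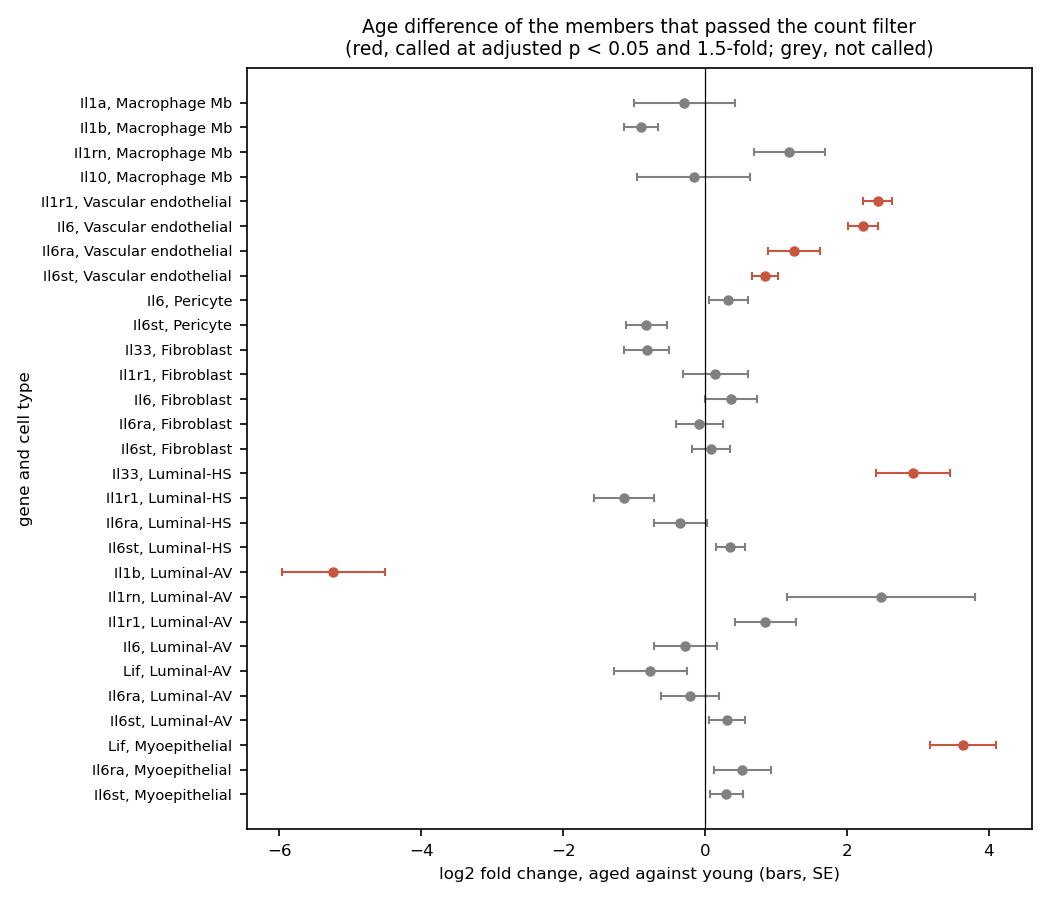
Log2 fold change of aged against young mice (x axis, bars show the SE) for the 29 pairs of a member and a cell type that passed the filter (y axis), from the edgeR fit of each type; red points were called and grey points were not. The 4 vascular endothelial values lie between 0.84 and 2.43, and Il1b in AV cells, at -5.24, lies farthest from 0.

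The agonists Il1a and Il1b and the antagonist Il1rn shared a source. In Mb macrophages Il1b stood at 4627, 3375 and 3042 CPM in Young A, B and C and at 1624, 1503, 1355 and 1927 CPM in Aged A, B, C and D. Every young mouse lay above every aged mouse, but the difference was not called (log2 fold change -0.90 ± 0.24 SE, adjusted p = 0.117, edgeR); DESeq2 gave -1.08 with an adjusted p of 0.00982. Aged Mb sums rested on 35 to 124 UMIs of Il1b, young ones on 259 to 2403.

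Il1rn in Mb macrophages stood at 266, 326 and 626 CPM in Young A, B and C and at 1310.0, 534, 929 and 246 CPM in Aged A to D. The ages overlapped, since Aged D was the lowest mouse of all, and the difference was not called (log2 fold change 1.18 ± 0.50 SE, adjusted p = 0.22, edgeR). The mice held 17.4, 10.4 and 4.86 UMIs of Il1b for each UMI of Il1rn when young and 1.24, 2.81, 1.46 and 7.83 when aged. That ratio was below 3 in 3 of the 4 aged mice and above it in all young mice, with Aged D, which had 6 UMIs of Il1rn, between the young values. Il1a, at 121 to 873 CPM in young and 77.4 to 574 CPM in aged Mb macrophages, overlapped between the ages (log2 fold change -0.29 ± 0.71 SE, adjusted p = 0.88).

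Il10, which restrains macrophage activation, was also a gene of Mb macrophages. It stood at 300.4, 391 and 485 CPM in Young A, B and C and at 472, 0, 619.6 and 41 CPM in Aged A to D. Aged B and D, with 6 and 3 cells, were low, and Aged A and C lay in or above the young range (log2 fold change -0.16 ± 0.80 SE, adjusted p = 0.96). After thinning every cell to 2000 UMIs so that depth was equal, Il10 was found in 42.5% ± 12.4 (SD, n = 3) of young and 20.8% ± 25 (SD, n = 4) of aged Mb cells (exact two-sided permutation p = 0.257).

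Il1b was found in most Mb cells. With 2000 UMIs per cell it was found in 90 of 90, 13 of 16 and 17 of 18 Mb cells of Young A, B and C and in 7 of 9, 2 of 6, 3 of 4 and 2 of 3 Mb cells of Aged A to D. Over all mice it was found in 134 of 146 Mb cells (91.8%), most of them from Young A, in 122 of 224 dendritic cells (54.5%) and in 11 of 4820 AV cells (0.228%); unthinned cells, whose median depths were 5343, 4648 and 6632 UMIs in the same order, gave 95.2%, 62.9% and 0.477%. In Young A the tenth of Mb cells with the most Il1b held 22.9% of its UMIs, and in Young B and C it held 48.3% and 27%. Dendritic cells, which present antigen, carried Il1b at 741, 1794 and 1029 CPM in young mice and 1350.1 and 782 CPM in Aged A and B, with the ages overlapping.

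The second comparison set Mb against Ma macrophages in the 3 young mice, with the mouse as a block and a 2-fold minimum. Of 6 members tested, 4 were higher in Mb cells (11.2% of all 1672 genes tested were) and 1 was higher in Ma cells (15.8% were). The clusters were drawn from the same counts, so these p-values are not independent of how the types were made. Il1b stood at 35.4, 44.7 and 27.2 CPM in the Ma cells of Young A, B and C, about 2 orders of magnitude under Mb (log2 fold change 6.81 ± 0.28 SE, adjusted p = 1.44e-06). Il1a (5.62 ± 0.55), Il10 (3.93 ± 0.34) and Il1rn (3.51 ± 0.39) were higher in Mb cells too, each in 3 of 3 mice. Il6ra went the other way, at 86, 78.3 and 78.3 CPM in Ma cells against 17.3, 26.1 and 10.8 CPM in Mb cells (log2 fold change -2.12 ± 0.58 SE, adjusted p = 0.0233); this call was lost without Young C (adjusted p = 0.0749) and with DESeq2 (0.25), and without Young A the gene did not pass the filter. Il6 did not differ by the test (-1.43 ± 0.76, adjusted p = 0.202), with 101, 33.5 and 91.9 CPM in Ma and 17.3, 91.2 and 10.8 CPM in Mb cells.

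The single call downward was Il1b in AV cells, the milk-forming lineage, at a level far under that of macrophages. It stood at 5.77, 16.2 and 4.13 CPM in Young A, B and C (10, 9 and 10 UMIs) and at 0.165, 0.199, 0 and 0.161 CPM in Aged A to D (4 UMIs in 4026 cells). All young mice lay above all aged mice (log2 fold change -5.24 ± 0.72 SE, adjusted p = 0.00301). Low counts of Il1b appeared in other young cells too, with 41 UMIs in 1799 fibroblasts, 24 in 1571 HS cells and 18 in 932 vascular endothelial cells, and in the aged mice with 1 UMI in 194 fibroblasts, 1 in 567 HS cells and 0 in 887 vascular endothelial cells, which allows a share of up to 0.338% of these cells. Over all cells of a mouse, Il1b stood at 117 ± 94.2 CPM in young suspensions (SD, n = 3) and 8.82 ± 9.17 CPM in aged ones (SD, n = 4). Of the 8 myeloid markers in AV cells, the 7 other than Cd74 summed to 48.5 to 108 CPM in young and 2.09 to 9.05 CPM in aged mice, so markers of another cell type moved with this result, and their part in it was not tested.

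Il1rn was seen in AV cells as well, mainly in 1 mouse. Aged A held 21.9 CPM (133 UMIs), against 1.89, 4.64 and 0.644 CPM in the other aged mice and 1.24 to 1.8 CPM in young mice. The ages overlapped and the difference was not called (log2 fold change 2.48 ± 1.33 SE, adjusted p = 0.293).

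Il33 was a fibroblast gene in young mice and was found in HS cells as well in aged mice. In HS cells, which carry the hormone receptors, it stood at 1.09, 3.71 and 14.4 CPM in Young A, B and C and at 69.1, 56.5, 39.4 and 50.9 CPM in Aged A to D. Every aged mouse lay above every young mouse, and the rise was called (log2 fold change 2.93 ± 0.52 SE, adjusted p = 0.0114). Young C held 88 of the 98 young UMIs, and without it the log2 fold change was 4.70.

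The Il33 transcript was concentrated in few HS cells. UMIs were found in 14 of 162, 21 of 220, 6 of 93 and 6 of 92 HS cells of Aged A, B, C and D, with up to 25 UMIs in a cell, and in 3 of 422, 3 of 285 and 28 of 864 HS cells of Young A, B and C. At 2000 UMIs per cell the share was 0.502% ± 0.869 in the young (SD, n = 3) and 4.48% ± 2.11 in the aged group (SD, n = 4; exact two-sided permutation p = 0.0571; 1.67% and 7.79% without thinning), and it was 0.207% in AV cells of either age. Summed early response and heat shock genes, which move with tissue digestion, were 9527 to 11302 CPM in young and 9324 to 14688 CPM in aged HS cells, with overlap. The 5 fibroblast markers summed to 60.5 to 161 CPM in young and 288 to 1830 CPM in aged HS cells, without overlap. Of the 5, only Dcn was higher in every aged mouse (52 to 85.6 against 286 to 1825 CPM), while Col1a1 and Col3a1 were lower in every aged mouse, at 0 to 1.63 CPM. In the HS cells with no UMI of these 5 genes, a subset chosen after the values were seen, Il33 stood at 0.705, 4.55 and 11.1 CPM in Young A, B and C and at 80.1, 74, 129 and 211 CPM in Aged A to D, again without overlap. These values rested on 1, 7 and 44 UMIs in 229, 236 and 569 cells of Young A, B and C. In Aged A to D they rested on 41, 99, 27 and 35 UMIs in 69, 146, 28 and 20 cells. The subset was chosen in part on Dcn, which itself differed with age. The part of fibroblast RNA in the Il33 result was not tested.

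In fibroblasts, Il33 ran lower with age without a call. It stood at 87.6, 113 and 121 CPM in Young A, B and C and at 72.4, 23, 63.3 and 54.9 CPM in Aged A to D, with no overlap (log2 fold change -0.82 ± 0.32 SE, adjusted p = 0.176). The aged fibroblast sums rested on 42, 4, 5 and 6 UMIs. The age effect in HS cells exceeded that in fibroblasts by 4.01 ± 0.44 (SE) on the log2 scale (adjusted p = 5.28e-08; 2.12% of all genes differed in this pair of types), and that in myoepithelial cells by 3.71 ± 1.16 (adjusted p = 0.0485; 9.52% of all genes). It was not called against AV cells (2.56 ± 1.01, adjusted p = 0.224) or vascular endothelial cells (-0.25 ± 0.76, adjusted p = 0.89). Il33 did not pass the filter within myoepithelial cells (7 young and 27 aged UMIs), AV cells or vascular endothelial cells.

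Il33 was also seen in endothelial cells, below the filter. Vascular endothelial cells held 0.972, 0 and 4.12 CPM in young and 19.1, 31.4, 1.78 and 6.98 CPM in aged mice, with overlap at Aged C. This pair was not tested in the main fit, and it was called higher in aged mice by DESeq2 (log2 fold change 3.69, adjusted p = 0.0401). Lymphatic endothelial cells, a known site of Il33, held 248 and 182 CPM in Aged B and C, and 0 in Aged D, Young A and Young C, from 3 to 7 cells a mouse.

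**Figure D3:**
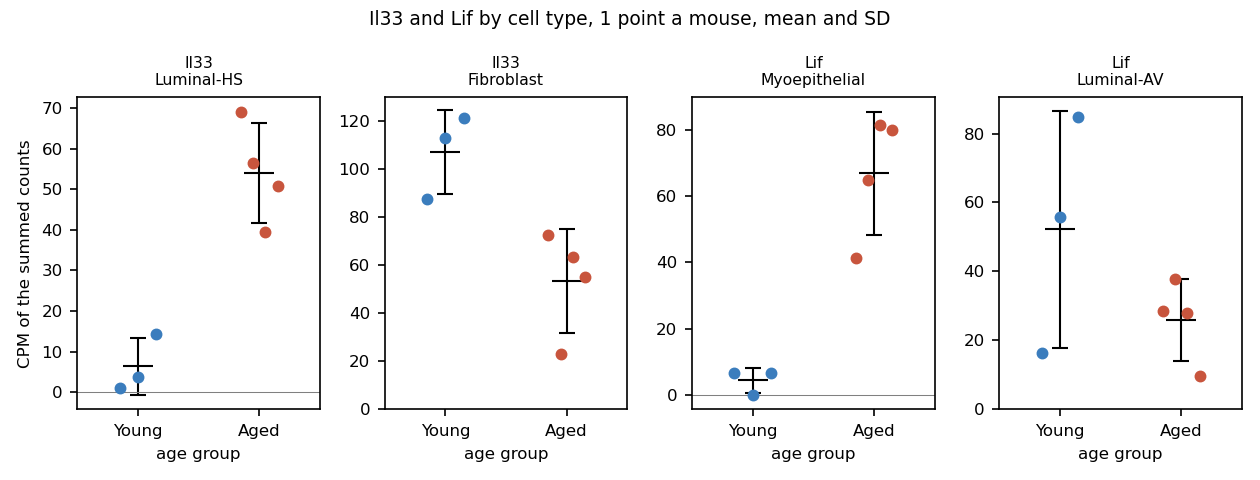
CPM (y axis) of Il33 in HS cells and fibroblasts and of Lif in myoepithelial and AV cells, by age group (x axis); each point is a mouse, and the bars show the mean and SD. Il33 in HS cells was 1.09 to 14.4 CPM in young and 39.4 to 69.1 CPM in aged mice, and Lif in myoepithelial cells was 0 to 6.61 CPM in young and 41.3 to 81.5 CPM in aged mice.

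Lif, the IL-6 family ligand that acts through Lifr and gp130, rose in myoepithelial cells, the contractile basal layer. It stood at 6.61, 0 and 6.49 CPM in Young A, B and C (9 UMIs in all) and at 41.3, 64.8, 81.5 and 79.9 CPM in Aged A to D. The ages did not overlap (log2 fold change 3.64 ± 0.46 SE, adjusted p = 5.57e-05). Lif was found in 0.974% ± 0.93 (SD, n = 3) of young and 9.77% ± 2.67 (SD, n = 4) of aged myoepithelial cells at 2000 UMIs (exact two-sided permutation p = 0.0286, the smallest the design allows, adjusted p = 0.114; 1.95% and 17.5% without thinning), and in 0.22% of vascular endothelial cells. Early response genes in myoepithelial cells summed to 6581 to 10573 CPM in young and 6405 to 9792 CPM in aged mice. Fibroblast markers in these sums were lower in every aged mouse (442 to 779 against 54.8 to 178 CPM), as were the myeloid markers (177 to 289 against 36.2 to 75.9 CPM), and their part in the result was not tested.

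In AV cells Lif stood at 16.2, 55.8 and 84.7 CPM in Young A, B and C and at 28.5, 37.8, 27.8 and 9.51 CPM in Aged A to D. These overlapped (log2 fold change -0.77 ± 0.51 SE, adjusted p = 0.408). The age effect on Lif in myoepithelial cells exceeded that in AV cells by 4.06 ± 0.73 (adjusted p = 0.00214, 9.25% of all genes differed). It exceeded that in vascular endothelial cells by 3.79 ± 0.99 (adjusted p = 0.00973, 15.3% of all genes). Lif had 6 young and 7 aged UMIs in vascular endothelial cells and did not pass the filter there. The 250 bases before the RefSeq start of Lif (GRCm38.p6, chr11:4257318-4257567, plus strand) are shown because this gene had the largest rise among the members called; capitals mark a TGANTCA match, the letters bound by AP-1.
Lif: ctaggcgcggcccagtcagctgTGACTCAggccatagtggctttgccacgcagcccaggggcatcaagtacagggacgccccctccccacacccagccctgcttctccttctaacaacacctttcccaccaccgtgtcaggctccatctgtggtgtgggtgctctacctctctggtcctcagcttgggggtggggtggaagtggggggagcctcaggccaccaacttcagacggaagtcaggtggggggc

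Il6 in vascular endothelial cells gave the clearest difference among the ligands. It stood at 194, 228 and 286 CPM in Young A, B and C and at 895, 870.2, 643 and 1025 CPM in Aged A to D. The lowest aged mouse was more than 2 times the highest young mouse (log2 fold change 2.23 ± 0.21 SE, adjusted p = 7.4e-06). At 2000 UMIs per cell Il6 was found in 19.4% ± 3.56 (SD, n = 3) of young and 45.8% ± 3.39 (SD, n = 4) of aged vascular endothelial cells (exact two-sided permutation p = 0.0286, adjusted p = 0.114; 26.2% and 58.9% without thinning). It was found in 0.539% of AV cells and in 0 of 60 T and B cells, which allows a share of up to 5%.

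The Il6 transcripts were unevenly spread over endothelial cells. The tenth of cells with the most Il6 held 81%, 75.4% and 71.6% of its UMIs in Young A, B and C and 53.7%, 53.9%, 43.3% and 51.6% in Aged A to D, and single cells reached 26 to 67 UMIs. The share was lower in every aged mouse than in every young mouse. These counts were not thinned, and Il6 was in 92 of 409, 95 of 378 and 45 of 145 young cells. In Aged A to D it was in 99 of 171, 146 of 285, 117 of 183 and 155 of 248 cells. A top-tenth share depends on how many cells hold the gene, so it is not separate from the rise in detection.

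Il1r1, the receptor through which both IL-1 agonists signal, rose in the same cells. It stood at 18.9, 18 and 27.5 CPM in Young A, B and C and at 73.1, 97.8, 96.3 and 80 CPM in Aged A to D. The ages did not overlap (log2 fold change 2.43 ± 0.21 SE, adjusted p = 3.6e-06). The share of cells with Il1r1 at 2000 UMIs was 3.86% ± 1.49 in the young (SD, n = 3) and 14.2% ± 2.41 in the aged group (SD, n = 4; exact two-sided permutation p = 0.0286, adjusted p = 0.114).

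Cells with Il6 more often held Il1r1. At 2000 UMIs, Il1r1 was found in 13.2%, 7.25% and 14.7% of the endothelial cells with Il6 in Young A, B and C, and in 1.47%, 1.62% and 2.7% of those without. In Aged A to D it was found in 16.7%, 17.9%, 17% and 23.3% of cells with Il6 and in 8.6%, 7.74%, 15.8% and 9.38% of those without. The share was higher beside Il6 in 7 of 7 mice, by little in Aged C; in the young mice this rested on 5 to 9 cells with both genes. Il6st was more frequent beside Il6 in 5 of 7 mice. It was found in 42.6%, 49.3% and 70.6% of young cells with Il6 against 22.3%, 26.5% and 19.8% of those without, and in 44.9%, 34.2%, 40.9% and 42.5% against 40.9%, 39.9%, 30.5% and 43.8% in Aged A to D, so Aged B and D went the other way. Of these endothelial cells, 166 of 932 young and 54 of 887 aged also held a pericyte marker. Young pericytes had more Il6 (mean 675 against 236 CPM) and Il1r1 (50.9 against 21.5 CPM) than young endothelial cells. The part of such mixed cells in this result was not tested.

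The shared signalling subunit gp130, Il6st, was highest in the vascular endothelium and rose there by less. It stood at 177, 191 and 265 CPM in Young A, B and C and at 335, 277, 249.6 and 312 CPM in Aged A to D. Aged C lay below Young C, so the ages overlapped at 1 mouse (log2 fold change 0.84 ± 0.18 SE, adjusted p = 0.00397). This fold change is on the TMM scale of the fit. The means of the CPM values differed by less than the 1.5-fold needed for a call. Il6st was found in 29.4% ± 3.24 (SD, n = 3) of young and 39.7% ± 3.78 (SD, n = 4) of aged cells at 2000 UMIs (exact two-sided permutation p = 0.0286, adjusted p = 0.114).

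Il6ra, the subunit that binds IL-6 itself, was scarce in these cells. It stood at 6.32, 9.8 and 15.1 CPM in Young A, B and C and at 25.4, 14, 12.5 and 19.7 CPM in Aged A to D, from 11 to 31 UMIs a mouse. The ages overlapped between Young C and Aged B and C (log2 fold change 1.26 ± 0.36 SE, adjusted p = 0.019). This call was lost without Young A (adjusted p = 0.114), Young B (0.059) or Aged D (0.0544), and with counts thinned to equal totals (0.0695).

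**Figure D4:**
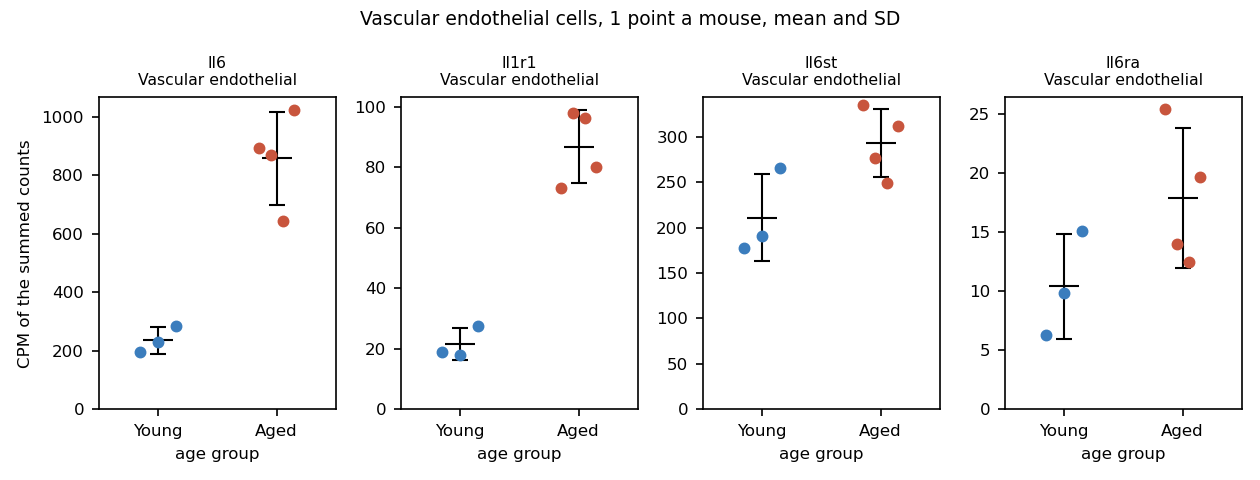
CPM (y axis) of Il6, Il1r1, Il6st and Il6ra in vascular endothelial cells by age group (x axis); each point is a mouse, and the bars show the mean and SD. Il6 was 194 to 286 CPM in young and 643 to 1025 CPM in aged mice, and Il1r1 was 18 to 27.5 CPM in young and 73.1 to 97.8 CPM in aged mice, both without overlap, while Il6st and Il6ra overlapped.

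Other signals in these endothelial sums moved with age and are given beside the 4 calls. The 8 myeloid markers summed to 213 to 623 CPM in young and 622 to 8708 CPM in aged vascular endothelial cells, and nearly all of the aged sum was Cd74 (617 to 8697 CPM). The 7 others summed to 25.6 to 83.8 CPM in young and 1.27 to 10.6 CPM in aged mice. Adgre1 and Itgax among them were at most 1.37 CPM in every mouse of either age. Il1b had 18 UMIs in young and 0 in aged vascular endothelial cells. Early response and heat shock genes summed to 15379 to 20293 CPM in young and 12042 to 15354 CPM in aged mice, lower with age. Pericyte markers summed to 98.6 to 346 CPM in young and 5.59 to 66.8 CPM in aged mice, and fibroblast markers to 62.1 to 331 and 15.2 to 61.4 CPM. Rgs5 and Notch3 of the pericyte list were lower in every aged than in every young mouse, with Rgs5 at 84.5 to 328 and 2.79 to 57 CPM. So were Col1a1, Col1a2, Col3a1 and Pdgfra of the fibroblast list. The remaining marker of each list overlapped between the ages. Des was at 5.5 to 9.8 CPM in young and 0.698 to 7.13 CPM in aged mice, and Dcn at 35.4 to 221 and 11.6 to 50.9 CPM. The part of Cd74-bearing and other cells in the results was not tested.

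The sequences before the starts of Il6 and Il1r1 are shown because both genes rose in the aged endothelium. RefSeq windows of 250 bases (GRCm38.p6) were found for 9 of the 10 members, 13 windows in all, with none for Il10. They were searched for a form of the site of nuclear factor kappa B (the kappa B motif, with free bases in its middle), TGANTCA (AP-1), TTGCNNAA (C/EBP) and TGACGTCA (CRE) on both strands and for TATAAA on the gene's strand; no match before a member overlapped a match to another motif. Among all 32851 windows, 1.41%, 6.75%, 9.56%, 1.55% and 7.59% held these motifs. Il6 (chr5:30012864-30013113, plus strand) held GGGATTTTCC 44 to 35 bases before the start, TTGTGCAA at 128 to 121 and TGAGTCA at 249 to 243. Il1r1 has 2 RefSeq starts, chr1:40224830-40225079 and chr1:40266336-40266585 (plus strand); the first window held TTGCTGAA 133 to 126 bases before the start and the second held no match to these letters. Capitals mark the matches.
Il6: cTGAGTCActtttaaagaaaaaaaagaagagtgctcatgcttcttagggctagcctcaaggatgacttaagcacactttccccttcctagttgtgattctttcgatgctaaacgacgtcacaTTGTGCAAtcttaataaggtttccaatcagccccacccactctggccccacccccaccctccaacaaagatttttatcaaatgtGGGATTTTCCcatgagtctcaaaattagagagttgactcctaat
Il1r1, first start: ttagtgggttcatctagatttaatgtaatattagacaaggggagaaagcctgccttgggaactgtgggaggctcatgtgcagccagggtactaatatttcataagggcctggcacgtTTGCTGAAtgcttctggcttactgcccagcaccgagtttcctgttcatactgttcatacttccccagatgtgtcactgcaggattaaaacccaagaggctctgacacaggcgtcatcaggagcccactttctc
Il1r1, second start: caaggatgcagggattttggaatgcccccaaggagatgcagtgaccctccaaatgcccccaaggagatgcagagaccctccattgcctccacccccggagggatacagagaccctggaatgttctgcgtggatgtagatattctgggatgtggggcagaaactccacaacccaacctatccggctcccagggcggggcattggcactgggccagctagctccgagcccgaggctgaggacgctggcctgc

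At least 1 match was found before 7 of the 9 genes, and each motif before 4 or fewer. The kappa B form was found before 2 of 9 genes (Il6 and 1 start of Il1rn), TGANTCA before 4 (Il1a, Il1rn, Il6 and Lif), TTGCNNAA before 3 (Il1r1, Il33 and Il6) and TATAAA before 3 (Il1a, Il1b and Il33). By window, the unit of the shares over all windows, these were 2, 4, 3 and 4 of 13. The shares over all windows were 1.41%, 6.75%, 9.56% and 7.59% in the same order. These counts are small and were not tested. Neither Il6ra nor Il6st, which rose in the same cells, held a match. A match of letters is a description and does not show that a factor binds there.

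The age effects of the endothelial members were set against other types by a test of the difference itself, with the mouse as a block. For Il6 the effect in vascular endothelial cells exceeded that in fibroblasts by 1.82 ± 0.35 (SE, log2 scale, adjusted p = 0.00298), a pair of types in which 5.7% of all genes differed. It exceeded that in AV cells by 2.51 ± 0.42 (adjusted p = 0.00198; 10.8% of all genes differed), in HS cells by 2.88 ± 0.57 (adjusted p = 0.00252; 11.1%), in myoepithelial cells by 3.55 ± 0.63 (adjusted p = 0.000343) and in pericytes by 1.96 ± 0.29 (adjusted p = 3.22e-05; 9.64%). Il6 did not pass the filter within HS cells (29 young and 8 aged UMIs) or myoepithelial cells (16 and 27). Among the other main sources of Il6, pericytes held 535 to 835 CPM in young and 463 to 1113 CPM in aged mice and fibroblasts held 149 to 327 and 149.6 to 494 CPM, both with wide overlap.

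For Il1r1 the endothelial effect exceeded that in fibroblasts by 2.16 ± 0.46 (adjusted p = 0.00689), in HS cells by 3.63 ± 0.43 (adjusted p = 2.02e-05), in pericytes by 2.28 ± 0.38 (adjusted p = 0.000193) and in AV cells by 1.57 ± 0.48 (adjusted p = 0.0479). HS cells held less Il1r1 in aged mice (1.18 to 5.84 CPM) than in young mice (8.33 to 17 CPM), a difference that was not called (log2 fold change -1.14 ± 0.42 SE, adjusted p = 0.126). Pericytes held 45.3 to 61.8 CPM of Il1r1 in young and 34.3 to 79.5 CPM in aged mice. Those values rested on 67 young and 33 aged UMIs, and Il1r1 did not pass the filter within pericytes.

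For Il6ra the endothelial effect exceeded that in fibroblasts by 1.42 ± 0.41 (adjusted p = 0.0421), in AV cells by 1.34 ± 0.37 (adjusted p = 0.0323) and in HS cells by 1.72 ± 0.49 (adjusted p = 0.0267). For Il6st it exceeded that in pericytes by 1.70 ± 0.33 (adjusted p = 0.000879), where Il6st was lower in aged mice, and it was not called against fibroblasts (adjusted p = 0.134), AV (0.191), HS (0.122) or myoepithelial cells (0.183). Il6st in pericytes stood at 334, 224 and 256 CPM in Young A, B and C and at 67.4, 117, 181 and 180.1 CPM in Aged A to D, without overlap and without a call (log2 fold change -0.83 ± 0.29 SE, adjusted p = 0.0734). Cells with this label held endothelial and pericyte markers together in 79.2% of young and 29.7% of aged cells. That shift and an age effect within pericytes cannot be told apart, which also holds for the pericyte comparisons of Il6 and Il1r1. The age effect on Il1b in AV cells was -3.81 ± 0.66 relative to that in Mb macrophages (adjusted p = 3.18e-06; 1.53% of all genes differed). Differences were read only for members already called with age in at least 1 type of the pair, so their count is not a rate. Of the 45 read, 18 were called, where 1.53% to 15.3% of all genes differed in the pairs with a call. Some set a type with UMIs against a type with none, such as Il33 in HS cells against pericytes.

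Over all cells of a mouse, Il6 did not show the difference seen within the endothelium. Il6 stood at 107, 155 and 115 CPM in the suspensions of Young A, B and C and at 113, 89.4, 87.8 and 166 CPM in those of Aged A to D, with overlap (exact two-sided permutation p = 0.571). Lif stood at 4.68, 8.42 and 19.3 CPM in young and 24.2, 33.9, 25.6 and 19.4 CPM in aged suspensions, with every aged mouse above every young mouse (exact two-sided permutation p = 0.0286, the smallest of the 35 divisions, adjusted p = 0.143 over 10 members). Il1b, Il1a and Il6ra were each lower in every aged than in every young suspension (exact two-sided permutation p = 0.0571 for each, adjusted p = 0.143). The share of all genes without overlap between the ages was not taken, and the mix of cell types differed with age. The number of members without overlap is therefore not a result about the members. No member passed an adjusted p of 0.05. In such sums fewer cells of a type and less RNA per cell cannot be told apart.

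The types that held the UMIs of a ligand differed between the ages. Vascular endothelial cells held 27.5% ± 15.1 (SD, n = 3) of the Il6 UMIs of a young mouse and 81.4% ± 7.5 (SD, n = 4) of those of an aged mouse, while they made up 17.7% and 12.5% of the cells. Fibroblasts held 90.3% ± 5.5 of the Il33 UMIs in young mice and 11.7% ± 9.5 in aged mice, where they were 25.5% and 2.76% of the cells, and HS cells held 59.6% ± 6.7 in aged mice. Myoepithelial cells held 34.6% ± 22.8 of the Lif UMIs in aged mice and AV cells held 60.4% ± 22. Mb macrophages were 1.97% of young and 0.313% of aged cells and held 57.6% ± 28.2 and 74.8% ± 20.2 of the Il1b UMIs.

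**Figure D5:**
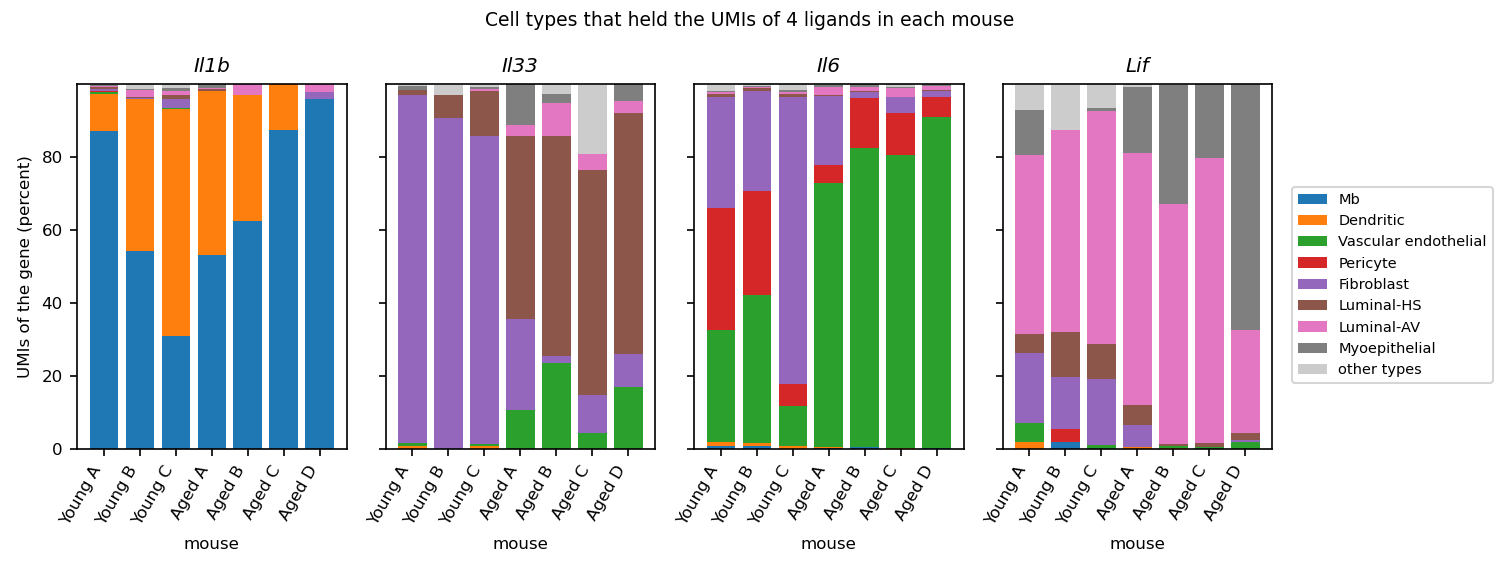
Share in percent (y axis) of all UMIs of Il1b, Il33, Il6 and Lif that came from each cell type, for the 7 mice (x axis, 1 bar a mouse); colours are cell types and light grey is the sum of the types not named. For Il6 the vascular endothelial share was 11% to 40.7% in young and 72.5% to 90.8% in aged mice.

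The other genes of the 2 pathways were read from lists of 69 genes that include the members. In vascular endothelial cells 35 of these were tested, 14 rose and 4 fell, beside 14.7% and 12% of all genes. Of the 13 genes listed under IL-1 signalling, all were tested, 5 rose and 1 fell. Those that rose were Nfkbia, the inhibitor of nuclear factor kappa B, with Nfkbiz (1.19), Nfkb1 (0.93), Rela (0.63) and Ikbkb (0.77). Nfkbia was at 2591 to 2952 CPM in young and 5172 to 6338 CPM in aged mice (log2 fold change 1.42 ± 0.14 SE). Whether IL-1 had a part in these differences was not tested. Casp1 (1.83) and Pycard (0.95), parts of the inflammasome that matures IL-1, rose too. On the IL-6 side, the ligand Clcf1 (2.88), the transcription factor Cebpb (1.26) and the receptor Lifr (0.62) rose, and Socs1 (-0.95), Il11ra1 (-0.66) and, on the IL-1 side, Irak4 (-0.97) fell. In CPM the ages overlapped for Nfkb1, Pycard, Lifr and Rela. Rela was at 65.1 to 111 CPM in young and 76.1 to 109 CPM in aged mice.

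In myoepithelial cells 29 of the 69 genes were tested, 10 rose and 2 fell, beside 12.8% and 14.8% of all genes. Ligands of the IL-6 family that rose included Lif, Clcf1 (log2 fold change 2.65 ± 0.35 SE) and Il11 (2.90 ± 0.41). Il11 stood at 8.5, 0 and 9.74 CPM in Young A, B and C and at 41.3, 61.7, 46.2 and 58.8 CPM in Aged A to D, without overlap. Like Lif, it passed the filter on low counts through the aged mice. Nfkbia (1.84), Nfkbiz (2.26), Nfkb1 (1.14), Rela (1.10), Tollip (1.20) and the receptor Cntfr (1.52) rose as well, and Il1rap (-1.64), the partner chain of Il1r1, and Il11ra1 (-1.04) fell. In CPM the ages overlapped for Cntfr and Il11ra1.

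Elsewhere fewer list genes were called. In HS cells 4 of 36 rose, beside 3.93% of all genes: Il33, Nfkbia (1.33), Nfkbiz (1.45) and Il18bp (1.49), a binding protein of interleukin 18. In CPM the ages overlapped for Il18bp. In AV cells 2 of 43 rose, Irak2 (1.46) and Casp1 (1.70), and Il1b fell, beside 2.9% and 3.26% of all genes. In fibroblasts 1 of 30 rose (Cebpb, 1.04; 2.07% of all genes), in pericytes 1 of 16 fell (Lifr, -1.17; 4.61% of all genes), counts near those shares, and in Mb macrophages 0 of 10 and in T and B cells 0 of 2 were called by edgeR. The median log2 fold change of the list genes tested was 0.57 in vascular endothelial and 0.46 in myoepithelial cells, beside -0.05 and 0.01 over all genes tested there.

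The genes whose levels were most like a member were named by Pearson correlation of log2(CPM + 1) over 80 sums of a mouse and type, among 9106 genes; sums of a mouse share a library, and this is a description. For Il1b they were AF251705, Mpeg1 and Spi1 (r = 0.952, 0.951 and 0.93), for Il1a Mmp12, Mmp13 and H2-M2 (0.928, 0.928 and 0.921), for Il1rn Ccr1, Clec4a2 and Adgre1 (0.905, 0.904 and 0.904) and for Il10 Clec4n, Cd207 and Lilrb4a (0.87, 0.866 and 0.849). For Il6 they were Hotairm1, Cd34 and Pdgfd (0.803, 0.794 and 0.788) and for Il6st Pdlim1, Rhoc and Crip2 (0.848, 0.782 and 0.737). Likeness was lower for Il6ra, with Plxnb2, Cnpy3 and Irf9 (0.726, 0.682 and 0.68), for Il1r1, with Sema6b, Adamts4 and Acer2 (0.711, 0.676 and 0.676), for Il33, with Cthrc1, Sult5a1 and 5930412G12Rik (0.652, 0.648 and 0.637), and for Lif, with Krt23, Ptges and Kctd1 (0.625, 0.607 and 0.601).

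In the order of types, several neighbours did not differ beyond their spread. Il6 was higher in pericytes (722 ± 229 CPM, SD, n = 7) than in vascular endothelial cells (592 ± 352) in 4 of 7 mice, namely in the 3 young mice and 1 aged mouse. Il1r1 was higher in vascular endothelial cells (58.8 ± 36.1) than in pericytes (51.8 ± 14.7) in 4 of 7 mice, the aged ones. Lif was higher in myoepithelial (40.1 ± 36) than in AV cells (37.2 ± 25.7) in 4 of 7 mice, and Il33 was higher in fibroblasts (76.5 ± 34.1) than in HS cells (33.6 ± 27.2) in 6 of 7. Il1b was higher in Mb macrophages than in dendritic cells in 5 of 5 mice, and Il6st was higher in vascular endothelial cells (258 ± 58.2) than in pericytes (194 ± 88.4) in 5 of 7.

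By annotation (GENCODE vM21, GRCm38) the members are protein-coding genes. Il1a (chr2:129299610-129309972) and Il1b (chr2:129364570-129371139) lie near each other on the minus strand and Il1rn (chr2:24336853-24351494, plus strand) on the same chromosome; Il1r1 (chr1:40225080-40317257), Il10 (chr1:131019845-131024974), Il6 (chr5:30013114-30019981), Lif (chr11:4257557-4272514), Il6st (chr13:112464070-112510086) and Il33 (chr19:29925114-29960718) are on plus strands and Il6ra (chr3:89864059-89913196) on a minus strand.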

How the data were processed

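Single-cell RNA was measured in 7 libraries, 1 per mouse. Per the labels and the study's methods, the authors mapped reads to mm10 with Cell Ranger 2.0, removed cells of poor quality, clustered the rest and deposited raw UMI counts (27998 genes by 13684 cells) with a mouse and a cell type for each cell. No doublet step was added here. The ages came from the labels, and the members and lists were chosen with earlier results of these data known.

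Counts were summed per mouse and type (at least 3 cells) and given as CPM. Each type present in all 7 mice was tested with the edgeR 4.0.16 quasi-likelihood test (TMM scaling, filterByExpr, R 4.3.3) and Benjamini-Hochberg adjustment. Calls needed an adjusted p under 0.05 and 1.5-fold. Differences of the age effect between types were fitted with the mouse as a block and read only for members called with age in at least 1 of the types. Named genes were the members, the called genes of the pathway lists (some are counted but not reported here by name), and the 3 genes most like each member. Shares of cells with a UMI were taken after thinning every cell to 2000 UMIs (no cell was shallower), and 24 pairs of a member and a type with at least 5% in 1 age were tested by exact two-sided permutation of mice. Over all cells, log2(CPM + 1) was tested the same way. With 3 against 4 mice the smallest p is 0.0286. The label letters A to D name different animals: of 24 correlations between same-letter deviations, which ran from -0.17 to 0.37, only 3 were over 0.1, so mice were not paired. Alternatives were DESeq2 1.42.0, RLE size factors, no filter, at least 10 cells, no fold minimum, no ribosomal or mitochondrial genes, equal totals, a block of the letters and leaving out each mouse. Scripts were tested on simulated data. Limits for a count of 0 cover counting error only. Upstream sequences are from RefSeq.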

Additional observations from a re-analysis of the deposited data

Results flagged for a closer look

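In groups of 4 mice, 39 of which were examined, the aged mice held 2 values far from the other 3, where chance gives about 1 in 20 groups. Il6st in HS cells stood at 78.0 CPM in Aged A, and Il1b over all cells stood at 22.6 CPM in Aged A.

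The age effect differed between types in 18 of the 45 comparisons read, each tested as an interaction in edgeR. They were read only for members already called with age in at least 1 of the types. On the log2 scale the effect on Il6 in vascular endothelial cells exceeded that in fibroblasts by 1.82, in AV cells by 2.51, in HS cells by 2.88, in myoepithelial cells by 3.55 and in pericytes by 1.96. For Il1r1 the endothelial effect exceeded that in fibroblasts by 2.16, in AV cells by 1.57, in HS cells by 3.63 and in pericytes by 2.28. For Il6ra it exceeded that in fibroblasts by 1.42, in AV cells by 1.34 and in HS cells by 1.72, and for Il6st that in pericytes by 1.70. The effect on Il33 in HS cells exceeded that in fibroblasts by 4.01 and in myoepithelial cells by 3.71. The effect on Lif in myoepithelial cells exceeded that in AV cells by 4.06 and in vascular endothelial cells by 3.79. For Il1b the difference of AV cells from Mb macrophages was -3.81. In these comparisons some genes did not pass the filter within the second type. They were Il6 in HS and myoepithelial cells, Il1r1 in pericytes, Lif in vascular endothelial cells and Il33 in myoepithelial cells.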

How the results depend on the processing

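The count of 6 pairs higher in aged mice ran from 5 to 7 over the alternatives. The 1 pair lower in aged mice became 2 with DESeq2, 7 with no filter and 0 with counts thinned to equal totals, where Il1b in AV cells did not pass the filter, and ran from 1 to 2 when a mouse was left out. With a replicate block of the label letters, which do not pair the mice, 6 pairs were higher and 1 lower: Il6ra in vascular endothelial cells was lost (adjusted p = 0.0992, edgeR) and Il1rn in AV cells was gained (log2 fold change 2.87, adjusted p = 0.044). The 1 member higher in Ma macrophages became 0 with DESeq2 and ran from 0 to 2 when a mouse was left out. The 1 member with an unadjusted p under 0.05 over all cells became 3 with a pseudocount of 10 CPM. The share of Mb cells with Il6ra, lower in aged mice after thinning to 2000 UMIs, reversed to an aged minus young difference of 1.76 percentage points without thinning and 0.556 at 1000 UMIs. The cause was not tested for these changes. Il33 in vascular endothelial cells was called higher under 7 alternatives. A minimum of 10 cells could not be fitted for Mb macrophages and T and B cells. Aged macrophage sums of 3 to 9 cells limit what can be read for Il1a, Il1rn and Il10.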

Other observations

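Dendritic cells were too few in aged mice for the comparison of types present in every mouse, and 2 aged sums could be used. Il1b there gave a log2 fold change of -0.05 ± 0.42 (SE, adjusted p = 0.964, edgeR) and Il1rn 1.45 ± 0.91 (adjusted p = 0.381). Dendritic cells of Young A, B and C held 27.6, 12.4 and 13.1 UMIs of Il1b for each UMI of Il1rn, Aged A held 4.57, and Aged B held 25 UMIs of Il1b and 0 of Il1rn. In Ma macrophages of young mice the ratio was 2.33, 0.667 and 0.615.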
